A study of Homo sapiens with 18 samples.

Results

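The BCL2 family sets the permeability of the outer mitochondrial membrane, and 10 of its genes were followed here in THP-1, a line of human monocytic leukaemia cells. The genes were taken by name and not by any measured value: they are the rows of the count table whose Ensembl identifier maps to BCL2, BCL2L1, MCL1, BCL2A1, BAX, BAK1, BCL2L11, BID, PMAIP1 or BBC3. These were 10 of the 63677 genes in the table, each symbol matched 1 row, and all 10 passed the filter on low counts that left 16678 genes for testing. The 18 libraries were made with a QuantSeq 3′ kit and formed 6 groups of 3. KD cells were transfected with 25 nM of an siRNA directed at TRAFD1, and SCR cells with the same amount of a scrambled non-targeting siRNA. The sample labels call WT cells untreated, whereas the transfection protocol gives WT as cells that received the transfection mix with no siRNA, so that differences between SCR or KD and WT cannot be tied to the siRNA alone. At 72 h after transfection, each condition was given LPS, a component of the outer membrane of bacteria, at 10 ng/ml for 4 h or medium alone (unstimulated). All libraries came from 1 cell line and KD rests on 1 siRNA. The labels say that treatments were done in triplicate but not whether these were separate cultures, so the p-values measure the spread between these libraries, which may be technical.

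The family falls into 3 kinds of protein. The anti-apoptotic members (BCL2, BCL2L1 which encodes BCL-XL, MCL1 and BCL2A1 which encodes BFL-1/A1) bind and restrain the others, and the effectors BAX and BAK1 form the pores through which cytochrome c leaves the mitochondrion. The BH3-only members sense stress: BCL2L11 (BIM) and BID can engage the effectors directly, PMAIP1 (NOXA) binds MCL1 and BCL2A1 above all, and BBC3 (PUMA) binds every anti-apoptotic member. In monocytes and macrophages BCL2A1 is a well-known target of the transcription factor NF-kB, which LPS activates, and MCL1 is a short-lived protein on which myeloid cells depend.

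Total counts ran from 8206023 to 22344279 per library, so that the 3 counts that a count of 0 allows stood at 0.133 to 0.378 CPM (counts-per-million, scaled by TMM over the tested genes), a floor that covers counting error only. The lowest count of any member in any library was 40, for BCL2A1, so every member was measured above that floor in all 18 libraries. Without LPS, TRAFD1 as the targeted gene stood at 8.67 ± 3.14 CPM in KD against 23.7 ± 3.38 CPM in SCR (SD, n = 3), a log2 difference of -1.45 (edgeR adjusted p = 0.0277). The call held in 3 of 6 fits that each left out 1 library, with values from -1.72 to -1.20. With LPS the log2 difference in TRAFD1 was -0.65 (14.5 ± 1.12 against 22.7 ± 4.42 CPM, adjusted p = 0.262). TNF and CXCL8, 2 genes that LPS is known to induce, rose with LPS in WT, SCR and KD, TNF by 3.16, 1.73 and 1.40 and CXCL8 by 4.34, 3.84 and 3.34 on the log2 scale. Unstimulated TNF stood at 15.9 CPM in WT and was higher in SCR (43.3 CPM, edgeR adjusted p = 9.44e-06) and KD (43.2 CPM, adjusted p = 1.10e-05). With LPS it stood at 141, 144 and 114 CPM in WT, SCR and KD. The conditions thus did not start from the same unstimulated level of TNF, which limits comparisons of LPS responses between them. All 10 monocyte and myeloid markers examined had a median of at least 1 CPM, with a summed level of 763 to 1016 CPM, whereas T cell, erythroid and epithelial markers had none at that level. The fibroblast list reached it with COL1A1 alone, with a summed level of at most 3.81 CPM. Libraries of 1 group correlated with a mean r of 0.957 to 0.980, with the lowest values in unstimulated KD (0.957, 0.960 and 0.963).

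Of the 10 genes, BCL2A1, BID and BBC3 passed the test with LPS in all 3 conditions, and their promoters are shown for that reason. RefSeq (GRCh38.p14) gave 14 windows, each reaching from 250 bases before to 50 bases after a transcription start, for 9 of the 10 members. The windows were searched on both strands for a kB consensus site and for TGANTCA (AP-1) and TGACGTCA (CRE) as well as TGATGNAA (a composite C/EBP-ATF element) and CACGTG (E-box), CCAAT (bound by NF-Y) and GAGGAAGT (a purine-rich ETS element). These motifs were picked after the windows had been seen, so their presence is a description. In the sequences below, written 5′ to 3′ along the gene, capitals mark the matches, and no match overlapped another. The BCL2A1 window is chr15:79971147-79971446, the BBC3 window chr19:47232618-47232917 and the BID window chr22:17773993-17774292, all on the minus strand.
BCL2A1: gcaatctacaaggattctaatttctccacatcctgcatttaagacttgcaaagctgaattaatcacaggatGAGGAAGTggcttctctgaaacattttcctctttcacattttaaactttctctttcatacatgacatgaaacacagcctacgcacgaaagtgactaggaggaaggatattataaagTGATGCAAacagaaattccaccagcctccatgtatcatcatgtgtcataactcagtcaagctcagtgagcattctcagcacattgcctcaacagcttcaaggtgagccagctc
BBC3: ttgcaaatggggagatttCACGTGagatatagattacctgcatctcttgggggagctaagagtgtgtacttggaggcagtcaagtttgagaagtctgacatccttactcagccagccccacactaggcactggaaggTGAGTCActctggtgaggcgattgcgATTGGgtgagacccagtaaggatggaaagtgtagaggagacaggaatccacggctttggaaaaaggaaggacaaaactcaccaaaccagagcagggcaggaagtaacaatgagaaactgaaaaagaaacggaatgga
BID: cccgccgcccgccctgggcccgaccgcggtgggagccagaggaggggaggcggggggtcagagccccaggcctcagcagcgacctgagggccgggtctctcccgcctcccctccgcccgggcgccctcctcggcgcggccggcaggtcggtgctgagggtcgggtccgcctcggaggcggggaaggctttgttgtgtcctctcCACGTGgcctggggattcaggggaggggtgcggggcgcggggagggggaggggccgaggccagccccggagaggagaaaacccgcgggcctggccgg
The BCL2A1 window held TGATGCAA at -63 to -56 and GAGGAAGT at -179 to -172 from the start, motifs found in 3.62% and 2.59% of all 35116 windows. The BBC3 window held TGAGTCA at -113 to -107 (TGANTCA, 7.71% of windows), CACGTG at -232 to -227 (7.26%) and a CCAAT motif on the reverse strand at -87 to -83 (34.6%). BID has 5 overlapping or neighbouring windows. The printed one holds CACGTG at -47 to -42 and another holds the same site farther from its own start. The remaining BID windows held no match to any motif searched. Which of these starts THP-1 cells use was not measured, so the printed window need not be the one in use. The BAX window held CACGTG at 4 places between -138 and -9. The kB consensus, present in 5.91% of all windows, had no match in a window of any member, which says only that these letters are not in these 300 bases.

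Because QuantSeq yields 1 fragment per transcript, levels can be set side by side between genes without a correction for length, though isoforms are not resolved and only the last 500 bases of each gene were counted. MCL1 (chromosome 1, 150533371 to 150552214 in GRCh37, minus strand) had the highest level of the 10 with a mean of 485 CPM over all libraries, and held 47.7% to 57.6% of the family's counts. BID (mean 94.6 CPM), PMAIP1 (79.0), BCL2 (57.7) and BBC3 (53.3) followed, then BAK1 (38.3), BCL2L11 (31.2), BAX (22.2), BCL2L1 (18.03) and BCL2A1 (14.2). Neighbours in this order had overlapping ranges over the 18 libraries except MCL1, whose lowest library (351 CPM) lay above the highest of BID (143 CPM). Within the share of counts, the anti-apoptotic members together held 58.3% to 67.8%, the effectors 4.74% to 10.3% and the BH3-only members 26.1% to 32.8%. The later annotation used here places exons of ADAMTSL4 and ADAMTSL4-AS1 inside the last 500 bases of MCL1 as that annotation draws it. The counts were made on the earlier annotation of the authors, in which the end of MCL1 may lie elsewhere. That end was not examined, and whether the counting used strand is not given in the sources used here. Whether a part of the MCL1 count belongs to ADAMTSL4 or ADAMTSL4-AS1 therefore cannot be told. BAK1 has the named pseudogenes BAK1P1 and BAK1P2, between which and BAK1 reads can be split.

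**Figure D1:**
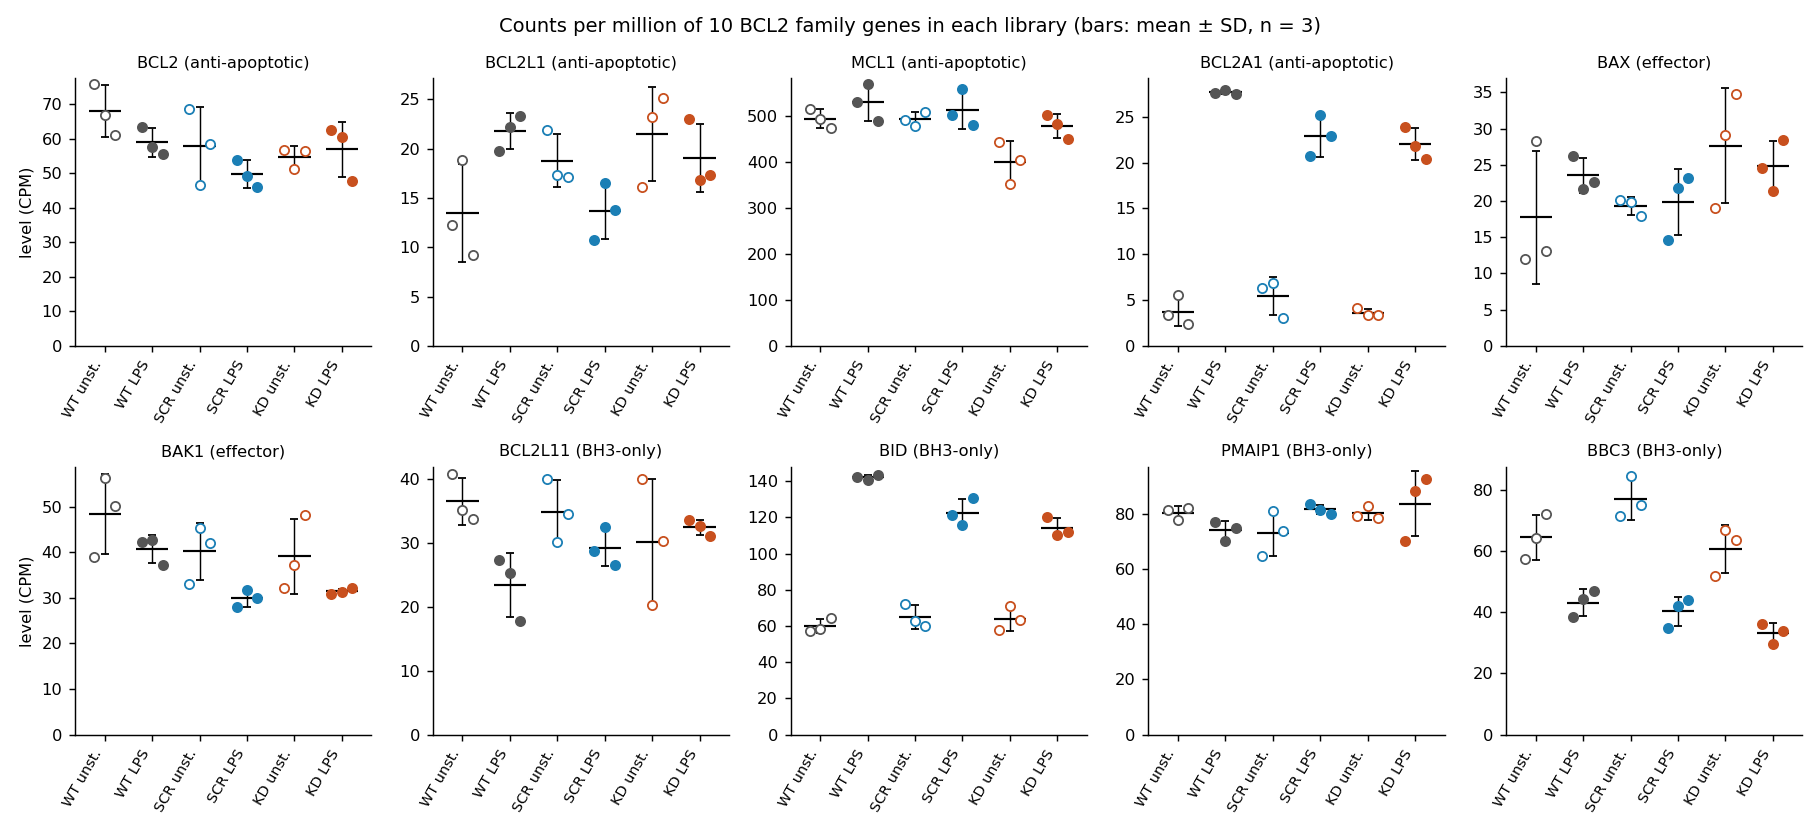
Level (CPM, linear axis from 0) of the 10 BCL2 family genes in each of the 18 libraries, with open points for unstimulated and filled points for LPS-stimulated cells and bars for the mean ± SD (n = 3). BCL2A1 and BID sit higher and BBC3 lower in every LPS library than in any unstimulated library of the same condition.

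**Figure D2:**
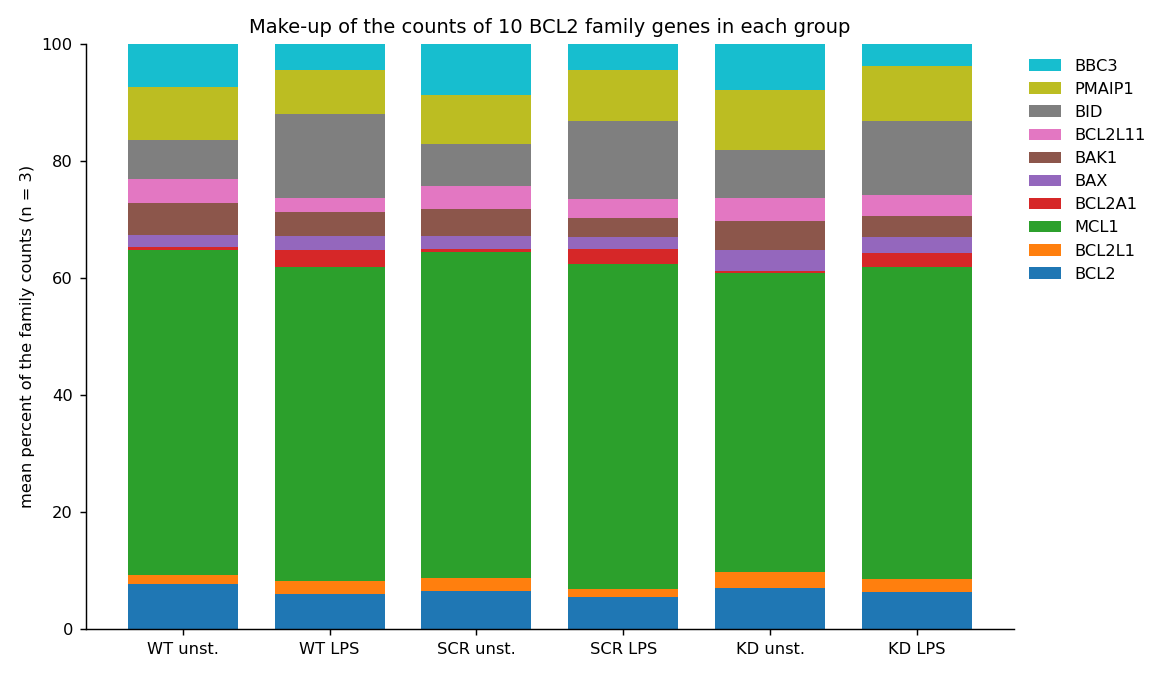
Mean share (percent, n = 3 libraries) that each of the 10 genes held of the family's summed counts in the 6 groups, stacked from 0 to 100. MCL1 held the largest share in all 6 groups, the BID share was wider and the BBC3 share narrower in the LPS groups.

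The first question was how the family responded to LPS, which is known to act through NF-kB in these cells. In WT, 3 of the 10 members rose and 2 fell, beside 7.01% and 7.26% of all genes tested. In SCR 2 rose and 1 fell, beside 8.64% and 8.56% of all genes, and in KD 2 rose and 1 fell, beside 6.41% and 5.05%. The median log2 fold change of the 10 members was -0.01, -0.09 and 0.06 in WT, SCR and KD, where that of all genes was -0.03, -0.03 and -0.00, so the family did not shift as a block. Changes of level in these bulk libraries cannot tell a change within each cell from a change in the share of cells that express a gene. Where the libraries of 2 groups did not overlap, this is given as a description. The share of all genes without overlap was not counted.

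BCL2A1 (chromosome 15, 80253234 to 80263538 in GRCh37, minus strand), the anti-apoptotic member known to be induced in inflammation, had the widest response of the family. In WT it stood at 3.33, 5.54 and 2.36 CPM in unstimulated libraries 1, 2 and 3 and at 27.6, 27.9 and 27.5 CPM in LPS libraries 4, 5 and 6. In SCR the values were 6.36, 6.85 and 3.08 CPM without LPS and 20.7, 25.2 and 22.9 CPM with LPS, and in KD 4.10, 3.39 and 3.34 CPM and 23.9, 21.8 and 20.4 CPM. Every LPS library was thus higher than every unstimulated library, and the 3 WT LPS libraries were higher than the 6 others with LPS. BCL2A1 rose 7.70-fold in WT (log2 fold change 2.94, 95% interval 2.42 to 3.47, adjusted p = 2.65e-08), 4.21-fold in SCR (2.07, 1.57 to 2.58, adjusted p = 3.48e-06) and 6.07-fold in KD (2.60, 2.07 to 3.13, adjusted p = 3.05e-07). Without LPS it had the lowest group mean of the family in each condition, and with LPS its mean was above that of BCL2L1 in each condition.

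The other anti-apoptotic members showed no response common to the conditions. BCL2L1 (chromosome 20, 30252255 to 30311792, minus strand) stood at 12.3, 18.9 and 9.25 CPM in unstimulated WT and at 19.7, 22.2 and 23.3 CPM in LPS-stimulated WT, a rise of 0.71 on the log2 scale (SE 0.225, adjusted p = 0.0370). The call was lost without WT unstimulated library 1 (0.66, adjusted p = 0.117) or 3 (0.49, adjusted p = 0.202), and without WT LPS library 4 (0.78, adjusted p = 0.0569), 5 (0.70, adjusted p = 0.0927) or 6 (0.66, adjusted p = 0.113). In SCR the 3 LPS libraries (10.7, 16.5 and 13.8 CPM) lay below the 3 unstimulated ones (21.9, 17.4 and 17.1 CPM), a log2 fold change of -0.45 that did not pass (adjusted p = 0.185), and in KD the 2 groups overlapped (-0.18, adjusted p = 0.660). MCL1 stood at 495 ± 20.6, 493 ± 15.5 and 400 ± 46.1 CPM without LPS and at 531 ± 40.4, 514 ± 41.2 and 478 ± 26.5 CPM with LPS in WT, SCR and KD, with log2 fold changes of 0.10, 0.06 and 0.26 (adjusted p = 0.517, 0.697 and 0.0667). Without KD unstimulated library 1 the MCL1 response in KD was 0.34 and passed (adjusted p = 0.0147). BCL2 (chromosome 18, 60790579 to 60987361, minus strand) ranged from 46.1 to 76.0 CPM over all libraries and had log2 fold changes of -0.21, -0.23 and 0.05, none of which passed.

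For the effectors no LPS contrast passed in the fit over all libraries. BAX (chromosome 19, 49458072 to 49465055, plus strand) varied widely within groups: in unstimulated WT it stood at 11.9, 28.3 and 13.0 CPM, in unstimulated KD at 19.1, 29.1 and 34.8 CPM. Its log2 fold changes with LPS were 0.43 (95% interval -0.11 to 0.97), 0.05 (-0.49 to 0.59) and -0.16 (-0.69 to 0.37) in WT, SCR and KD. Without WT unstimulated library 2, the highest of its group, the WT value was 0.91 and passed (adjusted p = 0.00836). BAK1 (chromosome 6, 33540324 to 33548070, minus strand) had log2 fold changes of -0.25, -0.42 and -0.32, with 40.8 ± 3.03, 29.9 ± 1.92 and 31.4 ± 0.645 CPM with LPS against 48.5 ± 8.78, 40.2 ± 6.36 and 39.2 ± 8.24 CPM without. In SCR the 3 LPS libraries (28.0, 31.8 and 29.9 CPM) lay below the 3 unstimulated ones (33.1, 45.4 and 42.1 CPM) with an adjusted p of 0.0650. It passed with the libraries of the contrast alone (adjusted p = 0.0349), by DESeq2 (adjusted p = 0.0446) and without SCR unstimulated library 1 (adjusted p = 0.0338).

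Among the BH3-only genes, BID and BBC3 moved in opposite directions. BID (chromosome 22, 18216904 to 18257536, minus strand), whose product is cleaved by caspase-8 and so links death receptors to mitochondria, stood at 57.5, 58.2 and 64.3 CPM in unstimulated WT and at 142, 141 and 143 CPM with LPS. In SCR it stood at 72.2, 62.6 and 59.8 CPM against 121, 116 and 131 CPM with LPS, and in KD at 57.7, 71.2 and 63.4 CPM against 120.2, 110.1 and 112 CPM. The LPS libraries were above the unstimulated ones with no overlap, and the WT LPS libraries were again the highest of all. The rise was 2.37-fold in WT (log2 1.24, 95% interval 1.04 to 1.45, adjusted p = 8.39e-09), 1.89-fold in SCR (0.92, 0.71 to 1.12, adjusted p = 1.24e-06) and 1.78-fold in KD (0.83, 0.62 to 1.04, adjusted p = 5.73e-06).

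BBC3 (chromosome 19, 47724079 to 47736023, minus strand), a target of p53, FOXO factors and the stress factors ATF4 and CHOP, stood at 57.4, 64.6 and 72.1 CPM in unstimulated WT and at 38.4, 44.3 and 47.0 CPM with LPS. In SCR the values were 71.7, 84.9 and 75.2 CPM without and 35.1, 42.0 and 44.1 CPM with LPS, and in KD 52.0, 67.0 and 63.6 CPM without and 36.1, 29.6 and 34.0 CPM with LPS. All 9 LPS libraries lay below all 9 unstimulated ones. BBC3 fell by 0.58 on the log2 scale in WT (SE 0.129, adjusted p = 0.00332), by 0.93 in SCR (SE 0.129, adjusted p = 3.10e-05) and by 0.87 in KD (SE 0.130, adjusted p = 8.67e-05). The calls of BCL2A1, BID and BBC3 with LPS held in all 6 fits that left out 1 library, in each condition.

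BCL2L11 (chromosome 2, 111876955 to 111926021, plus strand) stood at 40.8, 35.2 and 33.8 CPM in unstimulated WT and at 27.3, 25.2 and 17.8 CPM with LPS. This fall of 0.64 on the log2 scale passed (SE 0.190, adjusted p = 0.0267) but not without WT unstimulated library 1 (-0.55, adjusted p = 0.104) or WT LPS library 6 (-0.48, adjusted p = 0.147). In SCR and KD the values with and without LPS overlapped, with log2 fold changes of -0.26 and 0.10. PMAIP1 (chromosome 18, 57567228 to 57571537, plus strand) was the steadiest of the BH3-only genes, with group means between 73.2 ± 8.33 CPM in unstimulated SCR and 83.8 ± 11.8 CPM in LPS-stimulated KD and no LPS contrast past the threshold.

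**Figure D3:**
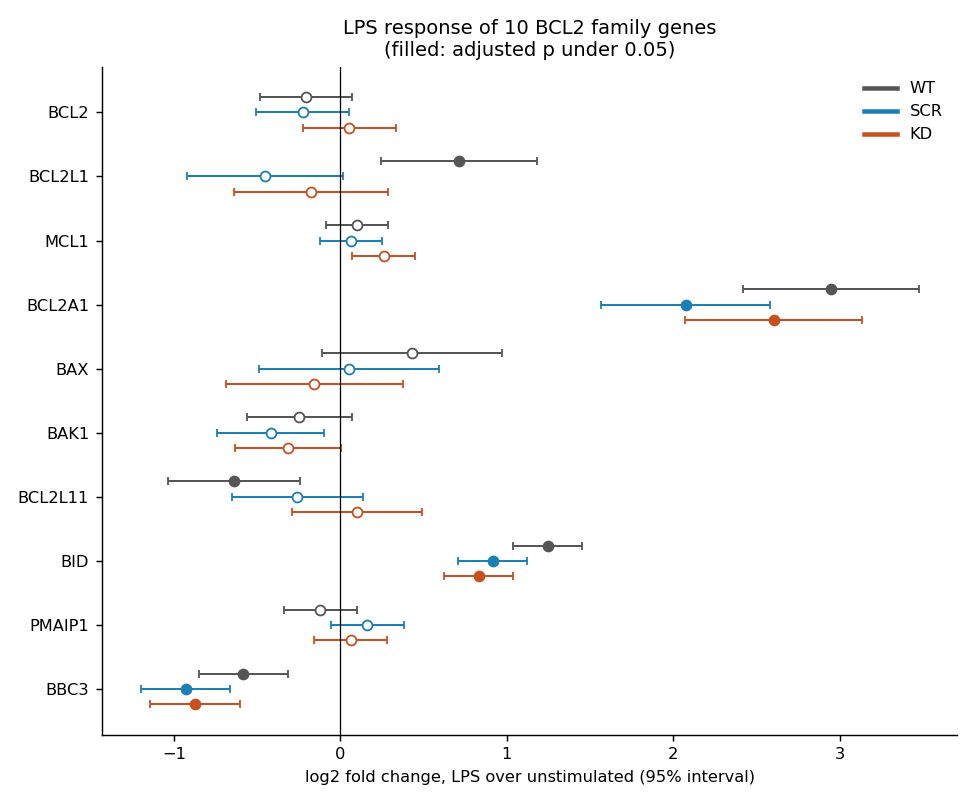
Log2 fold change of each of the 10 genes with LPS against unstimulated cells in WT, SCR and KD, with 95% intervals and filled points where the edgeR adjusted p was under 0.05. BCL2A1 (2.07 to 2.94) and BID (0.83 to 1.24) are to the right and BBC3 (-0.93 to -0.58) to the left in all 3 conditions, while BCL2L1 and BCL2L11 are filled in WT alone.

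Whether lowering TRAFD1 alters the family was addressed by KD against SCR, which carry the same amount of siRNA. None of the 10 members passed in unstimulated cells, where 0.0660% of all genes tested were called, and none with LPS, where 0% were called. At an unadjusted p under 0.05 there were 3 members without LPS (MCL1, BBC3 and BCL2A1) and 1 with LPS (BBC3), where 12.6% and 11.8% of all genes tested were under it, and the DESeq2 test on the libraries of each contrast also called 0 in both. MCL1 stood at 443, 351 and 404 CPM in KD against 491, 478 and 509 CPM in SCR without LPS, a difference of -0.30 on the log2 scale (95% interval -0.49 to -0.12, adjusted p = 0.154) in which the libraries did not overlap. BBC3 differed by -0.34 (-0.61 to -0.08, adjusted p = 0.254) without LPS and by -0.29 (-0.56 to -0.02, adjusted p = 0.393) with LPS. The intervals for BCL2A1 (-1.14 to -0.03) and BAX (-0.02 to 1.05) without LPS were the widest, and neither gene passed (adjusted p = 0.361 and 0.416). BID was at -0.02 (-0.23 to 0.19) without LPS and -0.10 (-0.31 to 0.10) with LPS.

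In SCR against WT, 0 of 10 members passed without LPS, beside 3.23% of all genes, and 0 with LPS, beside 0.114%. At an unadjusted p under 0.05 there were 2 members without LPS, beside 17.2% of all genes, namely BCL2L1 (0.51, adjusted p = 0.237) and BCL2A1 (0.60, adjusted p = 0.233). Both passed without WT unstimulated library 2, BCL2L1 at 0.81 (adjusted p = 0.0475) and BCL2A1 at 0.95 (adjusted p = 0.0497). With LPS, where 13.7% of all genes were under it, the 3 members were BCL2L1 (-0.66, adjusted p = 0.231), BAK1 (-0.45, adjusted p = 0.233) and BID (-0.21, adjusted p = 0.342). All SCR libraries lay below all WT ones for each, but separation did not set these 3 apart. BCL2 (-0.25, adjusted p = 0.426) and BCL2A1 (-0.27, adjusted p = 0.620) were likewise lower in SCR without overlap. PMAIP1 was higher without overlap (0.14, adjusted p = 0.583). The DESeq2 test on these libraries alone called 0 members without LPS and 2 with LPS, BCL2L1 (adjusted p = 0.0254) and BAK1 (adjusted p = 0.0314). Same-numbered SCR and WT libraries with LPS deviated together (r = 0.261, 0.163 and 0.253), a pairing read from these data and not given by the labels. With the numbers as a replicate block the count of members stayed at 0 while that of all genes went from 19 to 135. That block was shared with the KD libraries, which with LPS did not pair with SCR by number (r = -0.0875, 0.0896 and 0.0677).

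KD against WT gave the calls 1 higher and 1 lower without LPS, beside 5.85% of all genes in each direction. BCL2L1 was higher in KD (16.1, 23.2 and 25.1 CPM against 12.3, 18.9 and 9.25 CPM) by 0.69 on the log2 scale (95% interval 0.23 to 1.16, adjusted p = 0.0480), although the libraries overlapped. MCL1 was lower in KD by 0.31 (443, 351 and 404 CPM against 516, 493 and 475 CPM, log2 fold change -0.31, 95% interval -0.49 to -0.12, adjusted p = 0.0296) with no overlap. Both calls were lost with the libraries of the contrast alone and by DESeq2, and in most fits that left out 1 library, while the direction held. Unstimulated KD libraries correlated least with their own group, and the fit over all libraries shared its estimate of the spread between groups. BCL2L1 did not pass without WT unstimulated library 1 (0.64, adjusted p = 0.139) or 3 (0.47, adjusted p = 0.252), or KD unstimulated library 2 (0.64, adjusted p = 0.105) or 3 (0.56, adjusted p = 0.163). MCL1 did not pass without WT unstimulated library 1 (-0.28, adjusted p = 0.102), 2 (-0.31, adjusted p = 0.0511) or 3 (-0.34, adjusted p = 0.0562), or KD unstimulated library 2 (-0.22, adjusted p = 0.120) or 3 (-0.32, adjusted p = 0.0621). BAX was at 0.66 (adjusted p = 0.106). It passed with no filter on low counts (adjusted p = 0.00419) and with the replicate block (adjusted p = 0.0421), and without WT unstimulated library 2 (1.14, adjusted p = 0.00201) or KD unstimulated library 1 (0.88, adjusted p = 0.0273). Library numbers did not pair unstimulated KD and WT throughout (r = 0.304, 0.00390 and 0.0494), so the block is a weak basis there.

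With LPS, KD against WT gave 0 higher and 1 lower, beside 6.29% and 4.55% of all genes. TRAFD1 itself was not shown to be lower in this contrast (14.5 ± 1.12 against 17.0 ± 4.76 CPM, log2 fold change -0.23, adjusted p = 0.563). In unstimulated KD against WT it was lower (-1.23, adjusted p = 0.00156). BID was lower in KD by 0.32 (120.2, 110.1 and 112 CPM against 142, 141 and 143 CPM, log2 fold change -0.32, 95% interval -0.52 to -0.11, adjusted p = 0.0418). That call was lost in each of the 6 fits that left out 1 library, with log2 fold changes between -0.36 and -0.29 and adjusted p between 0.0687 (without KD library 4) and 0.154 (without KD library 5). BBC3 (-0.38, adjusted p = 0.0648), BAK1 (-0.38, adjusted p = 0.118) and BCL2L11 (0.47, adjusted p = 0.120) did not pass. Their KD and WT libraries did not overlap, nor did those of BCL2A1 (-0.33, adjusted p = 0.368). BBC3, BAK1 and BCL2L11 passed with the replicate block (adjusted p = 0.0304, 0.0338 and 0.0273), with the libraries of the contrast alone (0.0207, 0.0145 and 0.0309) and by DESeq2 (0.0255, 0.0175 and 0.0345). Library numbers did not pair these KD and WT libraries (r = -0.0737, 0.0367 and -0.00579), so the block has no basis there. SCR and KD were both compared with the same WT libraries, so the 2 sets of differences are not independent.

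The differences between LPS responses were tested directly. None of the 10 members passed in KD minus SCR (0% of all genes called), SCR minus WT (0.234%) or KD minus WT (0.360%). At an unadjusted p under 0.05 there were 0, 3 and 3 members, beside 7.64%, 9.96% and 15.5% of all genes, and the DESeq2 test called 0, 1 and 0. BCL2L1 had the lowest values, -1.17 in SCR minus WT (95% interval -1.83 to -0.50, adjusted p = 0.242) and -0.89 in KD minus WT (-1.55 to -0.23, adjusted p = 0.203), neither of which passed. Its SCR minus WT value is the 1 that DESeq2 called (-1.17, adjusted p = 0.0442), and without the filter on low counts both passed (adjusted p = 0.00297 and 0.0291). Without WT unstimulated library 2 the SCR minus WT value was -1.47 and passed (adjusted p = 0.0243). Without KD unstimulated library 1, BCL2L1 (-1.07, adjusted p = 0.0346), BCL2L11 (1.00, adjusted p = 0.0167) and BID (-0.48, adjusted p = 0.0405) passed in KD minus WT. BID was at -0.33 and -0.41 in SCR and KD minus WT (adjusted p = 0.466 and 0.188), BCL2A1 at -0.87 in SCR minus WT (adjusted p = 0.445) and BCL2L11 at 0.74 in KD minus WT (adjusted p = 0.210).

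**Figure D4:**
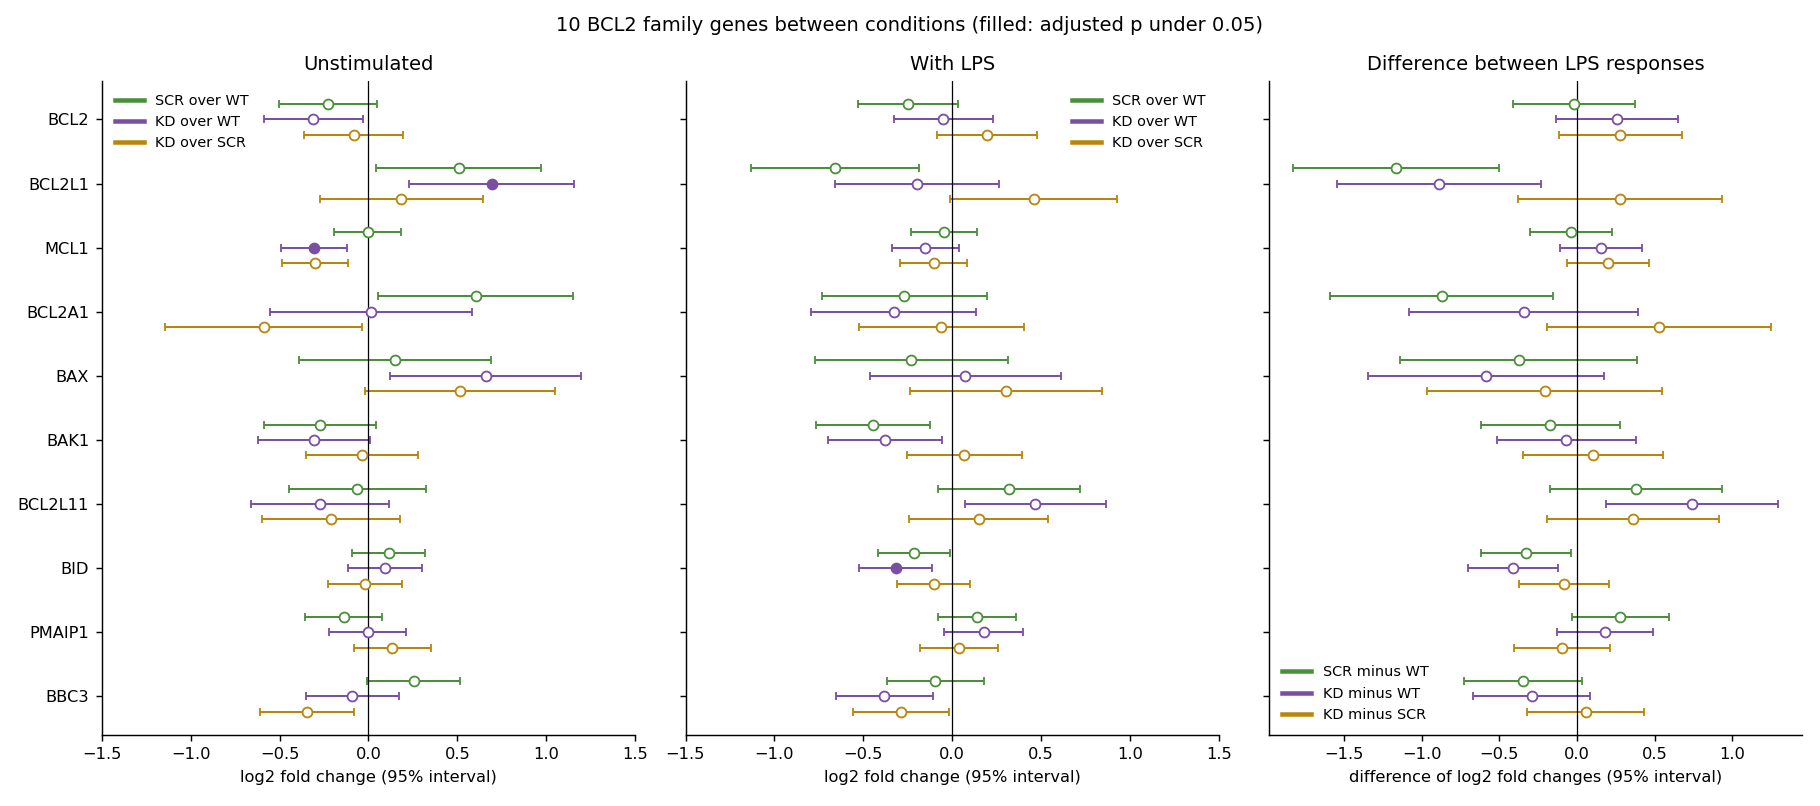
Differences of the 10 genes between conditions (log2 fold change with 95% interval) in unstimulated cells, in LPS-stimulated cells and, in the right panel, between LPS responses, with filled points where the adjusted p was under 0.05. The 3 filled points are BCL2L1 (0.69) and MCL1 (-0.31) in unstimulated KD over WT and BID (-0.32) in LPS-stimulated KD over WT.

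The genes around the family were read from 4 lists. The counts of each list with LPS stand beside the shares of all genes tested that rose and fell. These were 7.01% and 7.26% in WT, 8.64% and 8.56% in SCR, and 6.41% and 5.05% in KD. A count near these shares is no trait of its list. Of 13 further BCL2 family genes, 10 were tested (BCL2L10, BCL2L14 and HRK were too low). With LPS 2, 1 and 2 of them rose and 1, 0 and 1 fell in WT, SCR and KD. BMF, a BH3-only gene, rose in all 3 conditions (0.77, 0.69 and 0.73 on the log2 scale, adjusted p = 0.00841, 0.0171 and 0.0179), a call that held in 6, 4 and 2 of 6 fits without 1 library. BNIP3L, a mitophagy receptor, fell in WT (-0.63, adjusted p = 0.0103, held in 5 of 6 such fits). BCL2L13 rose in KD (0.41, adjusted p = 0.0426, held in 1 of 6). There BCL2L15, named after its value was seen, fell from 1.79 to 0.502 CPM (-1.84, adjusted p = 0.0281, held in 2 of 6), with 6 to 7 counts per LPS library. BOK, an effector-like gene, rose in WT from 0.377 to 1.39 CPM (adjusted p = 0.0462), a call lost in each of the 6 fits.

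Among the 17 genes of the apoptosome and caspases, 0, 1 and 3 rose and 2, 0 and 0 fell. DFFA, which holds the apoptotic nuclease in check, rose in SCR (0.72, adjusted p = 0.00923, held in 5 of 6 fits without 1 library). CYCS, the gene of cytochrome c (0.38, adjusted p = 0.0253, held in 2 of 6), PARP1, a DNA repair enzyme cut by caspases (0.68, adjusted p = 0.0204, held in 3 of 6), and the channel gene VDAC1 (0.69, adjusted p = 0.0166, held in 3 of 6) rose in KD. The caspase genes CASP2 (-0.31, adjusted p = 0.0451, held in 1 of 6) and CASP6 (-0.82, adjusted p = 0.0383, held in 0 of 6) fell in WT. VDAC1 and CASP6 were named after their values were seen.

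Of 19 caspase inhibitors and death receptor genes 18 were tested (FASLG was not), and 4, 4 and 3 rose and 0, 0 and 1 fell. BIRC3, which encodes the inhibitor of apoptosis cIAP2, rose by 2.88, 1.86 and 2.29 on the log2 scale (adjusted p = 8.93e-11, 5.14e-08 and 4.36e-09), from 4.48, 10.6 and 7.87 CPM to 33.5, 38.5 and 38.7 CPM. CFLAR, the gene of the caspase-8 inhibitor FLIP, rose by 0.79, 1.01 and 0.63 (adjusted p = 8.31e-06, 3.98e-07 and 0.000254). TNFSF10, the gene of the death ligand TRAIL, rose in WT and SCR (0.87 and 0.93, adjusted p = 0.000102 and 6.70e-05) and stood at 0.39 in KD (adjusted p = 0.0725). BIRC6 rose in SCR (0.44, adjusted p = 0.0119, held in 4 of 6). The remaining calls, named after their values were seen, were the adaptor gene TRADD in WT (0.69, adjusted p = 0.0163, held in 2 of 6), and in KD the kinase gene RIPK1 (0.58, adjusted p = 0.0333, held in 1 of 6) and TNFRSF10B, a receptor of TRAIL (-0.42, adjusted p = 0.0270, held in 3 of 6).

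The 25 upstream regulators, the largest list, had 7, 5 and 4 genes higher and 10, 6 and 6 lower in WT, SCR and KD. Of all genes tested, 7.01%, 8.64% and 6.41% were higher and 7.26%, 8.56% and 5.05% lower. NFKB1, which encodes an NF-kB subunit, rose by 2.55, 1.79 and 1.83 on the log2 scale (adjusted p = 8.86e-13, 3.17e-10 and 2.67e-10), and its response was lower in SCR and in KD than in WT by the direct test (-0.77 and -0.72, adjusted p = 0.0368 and 0.0466), each call holding in 2 of 12 fits without 1 library. In WT, SCR and KD it stood at 26.2 ± 2.64, 41.0 ± 4.97 and 35.5 ± 2.89 CPM without LPS. With LPS it stood at 154 ± 5.30, 142 ± 11.0 and 127 ± 11.1 CPM. The lower responses thus include higher unstimulated levels of NFKB1 in SCR and KD. The stress-response genes ATF4 (fell by 1.41, 1.64 and 1.46), TRIB3 (fell by 1.47, 1.62 and 1.78) and DDIT3, the gene of CHOP (fell by 1.18, 1.11 and 1.48), were lower with LPS in all 3 conditions. The highest adjusted p of these 9 values was 3.35e-06. The lists were written with earlier results of these data known, so their counts are a description.

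**Figure D5:**
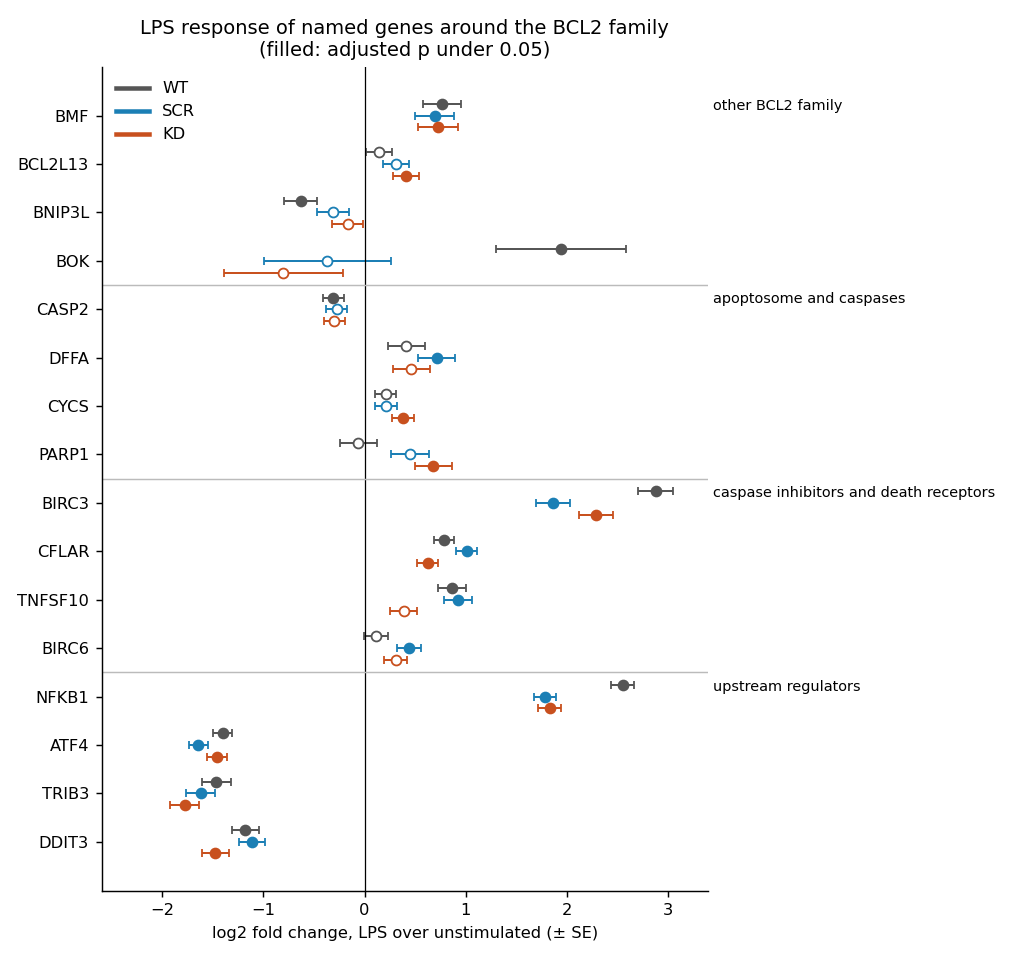
Log2 fold change with LPS (± SE) in WT, SCR and KD for 16 named genes from 4 lists around the family, with filled points where the adjusted p was under 0.05. BIRC3 (1.86 to 2.88) and NFKB1 (1.79 to 2.55) lie farthest to the right and ATF4, TRIB3 and DDIT3 (-1.78 to -1.11) farthest to the left.

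Between conditions, KD against SCR called none of the 10, 17, 18 and 25 genes tested from the 4 lists in either state, where 0.0660% and 0% of all genes were called. At an unadjusted p under 0.05 there were 0, 0, 2 and 2 in the same order without LPS, beside 12.6% of all genes. With LPS there were 3, 2, 3 and 5, beside 11.8%. For the other contrasts up to 2 genes per list are given. In unstimulated SCR against WT, BIRC3 (1.22, adjusted p = 0.000499) and the stress and immediate-early genes ATF3 (1.13, adjusted p = 0.000493) and JUN (0.72, adjusted p = 0.00219) were higher and the BH3-only gene BIK (-0.72, adjusted p = 0.0342) was lower. In unstimulated KD against WT, BIRC3 (0.80, adjusted p = 0.00681), ATF3 (0.98, adjusted p = 0.000723), BOK (1.98, adjusted p = 0.0460) and VDAC2, a mitochondrial channel that binds BAK1 (0.29, adjusted p = 0.0462), were higher. BOK was near the floor in this contrast, at 1.43 CPM in KD and 0.377 CPM in WT, with 3 to 8 counts per WT library. Lower there were BIRC2, which encodes cIAP1 (-0.53, adjusted p = 0.000618), the p53 target TP53INP1 (-1.09, adjusted p = 0.00196), DFFB, the apoptotic nuclease (-0.82, adjusted p = 0.0147), and BIK (-0.57, adjusted p = 0.0461). With LPS, KD against WT was higher for MYC (1.30, adjusted p = 0.00324), VDAC1 (0.93, adjusted p = 0.00434), PARP1 (0.89, adjusted p = 0.00641), BNIP3L (0.66, adjusted p = 0.0140) and BCL2L2, an anti-apoptotic relative of BCL2L1 (1.55, adjusted p = 0.0167). CFLAR (-0.51, adjusted p = 0.00434), TNFSF10 (-0.62, adjusted p = 0.00823) and RELA (-0.60, adjusted p = 0.00369) were lower there. Of these calls, those of BIK (both contrasts), BOK and VDAC2 held in 1 of 6 fits without 1 library, those of BNIP3L and BCL2L2 in 3 of 6 and that of DFFB in 4 of 6, and the others held in all 6.

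Over the 18 libraries, log2 CPM of BCL2A1 and BID went together (Pearson r = 0.950), and both went against BBC3 (-0.817 and -0.794). BCL2L1 and BAX also went together (0.784), with WT unstimulated library 2 the highest of its group for both. The genes most like the 3 members with the widest range of group means were NFKB1 (0.974), CD40 (0.973) and ENSG00000112096 (0.971), which has no symbol in the annotation used here, for BCL2A1, and TNIP1 (0.990), LTB (0.984) and ZC3H12A (0.984) for BID. For BBC3 they were AARS1 (0.949), TRAPPC4 (0.949) and RBCK1 (0.948). These correlations are descriptions over 18 libraries that share 6 group means and the LPS treatment.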

How the data were processed

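Per the labels and the methods of the study, the authors removed low-quality, adaptor and poly-A reads, aligned the rest with HISAT to GRCh37 (human_g1k_v37) and deposited raw counts per gene, made with featureCounts over the last 500 bases of each Ensembl 75 gene. All 18 columns were used. Counts were tested with edgeR 4.0.16 (R 4.3.3, quasi-likelihood F test, TMM, filterByExpr) in 1 fit of 6 group means. P-values were adjusted over 16678 genes by Benjamini-Hochberg with a threshold of 0.05. Standard errors and 95% intervals come from that fit. The code was tested on simulated data. The alternatives were another scaling (DESeq2 1.42.0 size factors), no filter, the libraries of a contrast alone, the DESeq2 test, the threshold of the study, a replicate block and each library left out. A GC correction was chosen after seeing the data. The replicate block used the library numbers of all conditions in both states within 1 fit. Same-numbered libraries deviated together for SCR and WT with LPS alone (r = 0.261, 0.163 and 0.253), a pairing that comes from the data, not from the labels. Gene coordinates come from GENCODE v44 lifted to GRCh37, later than the annotation of the authors, and promoter sequences from RefSeq (GRCh38.p14). Members, lists and tests were chosen with earlier results of these data known. Named besides the members were up to 4 list genes with the smallest summed rank of p over the LPS contrasts, and up to 2 per list and condition contrast with the smallest adjusted p. The result of 1 further marker list is not reported here.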

Additional observations from a re-analysis of the deposited data

How the results depend on the processing

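Of the 14 values of members that passed, 0 changed sign under an alternative, and of the 106 that did not pass 28 did (with the GC correction, for example, BCL2 and PMAIP1 with LPS in KD went from 0.05 and 0.06 to -0.08 and -0.07). BCL2A1, BID and BBC3 passed with LPS in each condition under every alternative but the stricter threshold of the study (an absolute log2 fold change over 1 and an adjusted p of at most 0.01). At that threshold BCL2A1 still passed in each condition and BID in WT. That threshold left 2, 1 and 1 members with LPS in WT, SCR and KD (5, 3 and 3 here), beside 499, 548 and 344 of 16678 genes. In KD against WT it left 0 members without and with LPS (2 and 1 here), beside 180 and 105 genes. Without the filter on low counts 1 member passed in SCR against WT with LPS, beside 593 of 34092 genes. Without that filter, KD against WT gave 3 and 0 members without and with LPS, beside 2031 and 2128 genes. The LPS responses of SCR minus WT and KD minus WT gave 1 and 2 members, beside 241 and 729 genes. With the libraries of the contrast alone, KD against WT gave 0 members without LPS (280 of 15493 genes) and 4 with LPS (3235 of 14990). The DESeq2 test gave the same 0 (836 of 13917 genes) and 4 (2949 of 15028). It also gave 2 members in SCR against WT with LPS (465 of 9435 genes) and 1 in the response of SCR minus WT (114 of 16152). With LPS in SCR, the libraries of the contrast alone and DESeq2 each gave 4 members, beside 3372 of 15334 and 3115 of 17564 genes. The replicate block gave 3 and 4 members in KD against WT without and with LPS, beside 2423 and 2566 of 16678 genes. It gave 1 in the response of KD minus WT, beside 547 genes. The numbers do not pair the libraries of these contrasts (r from -0.087 to 0.304 outside SCR against WT with LPS). For LPS against unstimulated cells no block could be fitted, since the groups share no numbers. Leaving out 1 library gave 3 to 6, 3 to 4 and 3 to 4 members with LPS in WT, SCR and KD, 0 to 2 in SCR against WT and 0 to 3 in KD against WT without LPS, 0 in KD against WT with LPS, and 0 to 1 and 0 to 3 in the responses of SCR and KD minus WT. All genes called in these fits, in the same order, numbered 1682 to 2095, 1789 to 2376, 1098 to 3150, 193 to 510 and 962 to 1934. For the last 3 contrasts they numbered 376 to 1428, 17 to 91 and 21 to 1313. Between 17181 and 17305 genes were tested. The background moved more: KD against SCR called 11 genes without LPS (320 with no filter, 183 with the block, 86 by DESeq2, 46 with the GC correction, 0 in its libraries alone) and 0 with LPS (425, 85, 619, 12 and 161). SCR against WT called 538 without LPS (934 with the block) and 19 with LPS (593 with no filter, 135 with the block, 465 by DESeq2, 47 in its libraries alone, 33 with the GC correction). KD against WT called 1951 and 1808 (836 and 2949 by DESeq2, 280 and 3235 in their libraries alone), and LPS in KD 1912 (1220 by DESeq2, 847 alone). The response differences called 0, 39 and 60 genes in KD minus SCR, SCR minus WT and KD minus WT (132, 241 and 729 with no filter, 0, 114 and 130 by DESeq2, and 547 with the block and 23 in its libraries alone for the last). The threshold of the study left between 0 and 548 genes over the 12 contrasts. With DESeq2 size factors the 4 higher and 7 lower genes of KD against SCR without LPS became 7 and 7. The causes were not tested.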
